A study of Arabidopsis thaliana with 18 samples.

Results

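PRX52 (locus AT5G05340) and AT5G64110 are class III peroxidase genes on chromosome 5 of Arabidopsis thaliana. They were found by symbol or locus in the probe annotation, where each has 1 probeset (250798_at and 247326_at), and they are 2 of 13350 genes with a named probeset. They were chosen by their signal on these arrays, which was higher in cells over-expressing IAA19mII than in cells over-expressing IAA7mII. That difference is therefore described here and is neither tested nor used as support. Class III peroxidases are secreted plant haem enzymes that use hydrogen peroxide to oxidise phenolic substrates in the cell wall, among them the monolignols that are coupled into lignin. They can also produce or consume reactive oxygen species in the wall, and in the root they are known for roles in wall stiffening and lignification. PRX52 has been linked to lignification in the Arabidopsis stem. No role is annotated for AT5G64110 in the reference table used here.

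The 18 expression arrays form 6 groups of 3. All cells came from 7-day-old Col-0 seedlings carrying Pwer::GFP, a green reporter driven by the promoter of WEREWOLF, a transcription factor gene of the epidermis and lateral root cap. Root protoplasts, made by 3 h of wall digestion, were transformed with pMON999_mRFP, the empty vector, with pBeaconRFP_IAA7mII or with pBeaconRFP_IAA19mII. After a night they were given 5 µM indole-3-acetic acid (IAA, the main natural auxin) or solvent (mock) for 3 h, and cells both green and red were sorted. IAA7 and IAA19 are Aux/IAA proteins, repressors of auxin-induced genes whose domain II lets auxin trigger their degradation. The labels do not explain mII, and it is read here as a mutation of that domain. Both over-expressors share a plasmid backbone that the empty vector lacks, so in any comparison with the empty vector the backbone and the over-expressed protein cannot be told apart. Expression in these transformed, sorted protoplasts was transient, and whether replicates were separate cultures is not stated, so that p-values reflect only how far these samples scatter, possibly for technical reasons. The sorted tissue could not be checked in depth. Of the 6 epidermis and root cap markers listed, 1 had a named probeset (EXPA7, an expansin gene of root hair cells), and none of the markers listed for xylem, endodermis, phloem or mesophyll had one. In sorted bulk cells, fewer cells of a type and less RNA per cell cannot be told apart.

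PRX52 had a low signal in 4 of the 6 groups and a high one in both IAA19mII groups. The values are MAS5 signals, a background-corrected brightness per probeset on a linear scale that the authors had scaled alike on every array. In empty vector cells PRX52 read 63.8, 59.4 and 74.4 in mock and 239, 48.0 and 77.9 with IAA. IAA7mII cells gave 97.9, 92.2 and 40.1 in mock and 26.4, 39.8 and 113 with IAA. IAA19mII cells gave 357, 718 and 613 in mock and 1299, 1488 and 556 with IAA. Every IAA19mII array lay above every other array, and the nearest other array was the first empty vector array with IAA, at 239. The group means, from the highest, were 1114 (SD 493, n = 3) in IAA19mII with IAA, 563 (SD 186) in IAA19mII mock, 122 (SD 103) in empty vector with IAA, 76.7 (SD 31.9) in IAA7mII mock, 65.9 (SD 7.71) in empty vector mock and 59.8 (SD 46.8) in IAA7mII with IAA. The 4 lower groups overlapped one another, and the 2 IAA19mII groups overlapped through the third IAA array. Within its array PRX52 ranked at percentiles 39.0 to 72.9 of all probesets outside IAA19mII cells and at 80.7 to 94.0 in them.

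AT5G64110 was also low in 4 groups and high in both IAA19mII groups, with a wider gap between them. Its signal was 64.4, 89.0 and 126 in empty vector mock cells and 87.7, 40.8 and 88.8 with IAA. In IAA7mII cells it was 116, 64.1 and 42.6 in mock and 122, 74.2 and 44.1 with IAA. In IAA19mII cells it was 1981, 1962 and 1618 in mock and 1649, 1769 and 1121 with IAA. The lowest of the 6 IAA19mII arrays, at 1121, was thus far above the highest of the 12 others, at 126. Means ran from 1853 (SD 204, n = 3) in IAA19mII mock and 1513 (SD 345) in IAA19mII with IAA to 93.2 (SD 31.1) in empty vector mock, 80.1 (SD 39.3) in IAA7mII with IAA, 74.3 (SD 37.8) in IAA7mII mock and 72.4 (SD 27.4) in empty vector with IAA. The 2 IAA19mII groups overlapped, as did the 4 others. AT5G64110 ranked at percentiles 46.1 to 66.1 of its array outside IAA19mII cells and at 92.3 to 95.7 in them.

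**Figure D1:**
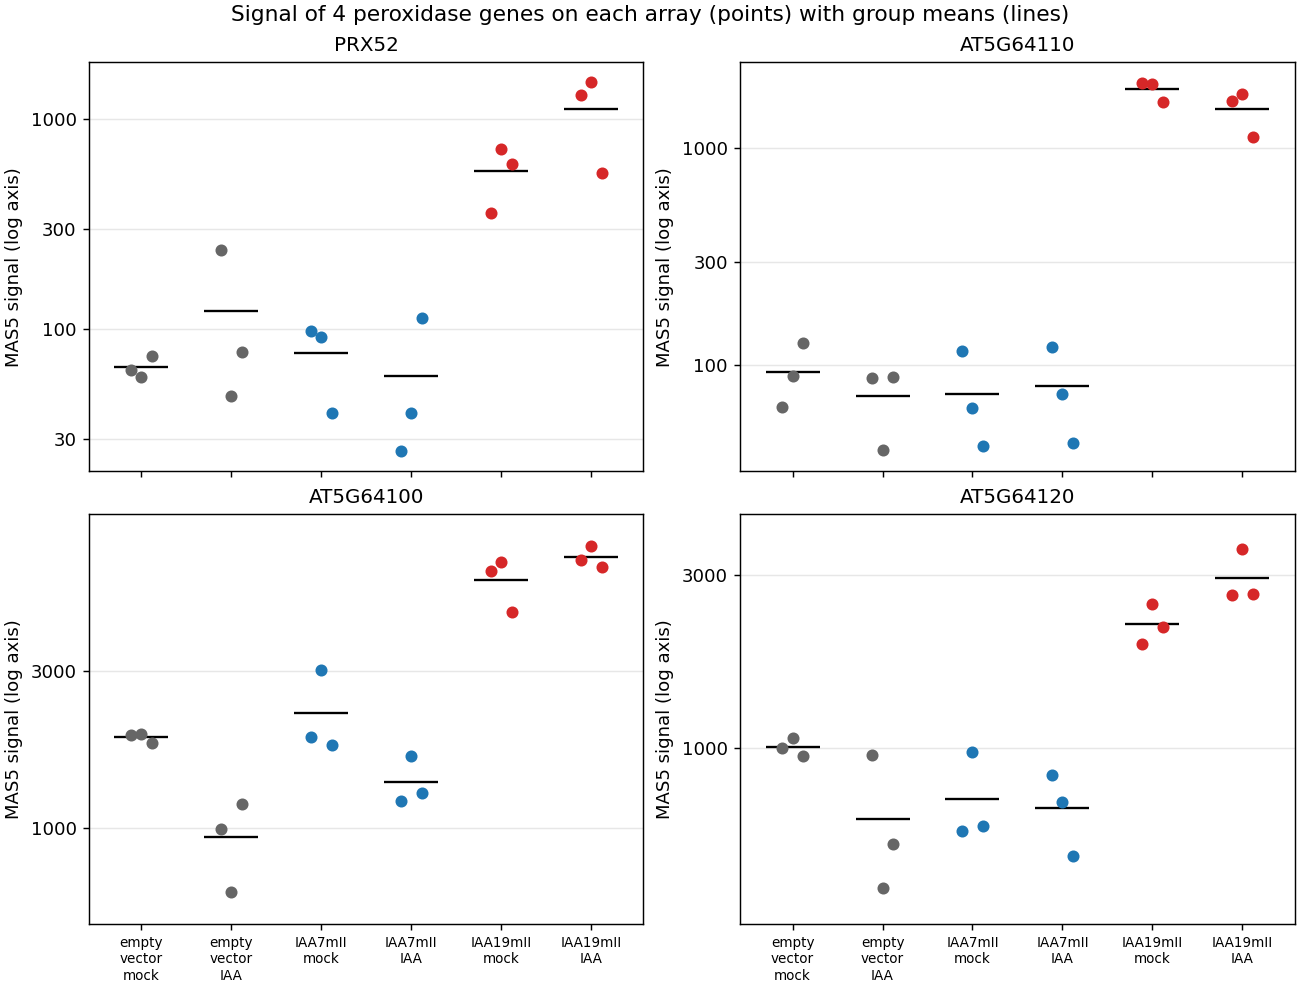
MAS5 signal (log axis) of PRX52, AT5G64110 and the genes beside AT5G64110 on chromosome 5, AT5G64100 and AT5G64120; points are single arrays in the 6 groups and lines are group means of 3 arrays. In each panel the 6 IAA19mII arrays lie above the 12 other arrays, as for 2.02% of all probesets tested.

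The sizes of the differences used to pick the genes were as follows, as a description only. The ratio of mean PRX52 signals, IAA19mII over IAA7mII, was 7.33 in mock and 18.6 with IAA. On the log2(signal + 16) scale used for the fit, which understates differences of low signals, these were differences of 2.65 ± 0.46 (± is a standard error here and below) and 3.95 ± 0.46. For AT5G64110 the ratios were 25 in mock and 18.9 with IAA, and the differences 4.45 ± 0.35 and 4.05 ± 0.35. Counted from the highest of the 16892 probesets above the low-signal filter, AT5G64110 ranked 2 in mock and 5 with IAA, and PRX52 ranked 38 and 6. All 6 IAA19mII arrays lay above all 12 others for both genes, as for 2.02% of the probesets tested; nothing is read from this, since the genes were picked for it.

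Each over-expressor was then set against the empty vector. These differences share the IAA19mII or IAA7mII arrays with the choice of the genes and are also given without a test. The mean PRX52 signal in IAA19mII cells was 8.54 times that in empty vector cells in mock and 9.16 times with IAA, and for AT5G64110 the ratios were 19.9 and 20.9. In IAA7mII cells PRX52 differed from empty vector cells by 0.12 ± 0.46 (log2) in mock and -0.78 ± 0.46 with IAA. AT5G64110 differed there by -0.32 ± 0.35 and 0.09 ± 0.35. The groups of IAA7mII and empty vector cells overlapped for both genes and both treatments.

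The response to IAA was not part of the choice in empty vector cells, and in the over-expressors it uses arrays that the choice also used. No response of either gene passed limma's moderated test at an adjusted p under 0.05. Few probesets of any kind did: 0.734% of all probesets were called in empty vector cells, 0.0888% in IAA7mII cells and 0.0888% in IAA19mII cells. PRX52 in empty vector cells differed by 0.50 ± 0.46 between IAA and mock (95% interval -0.46 to 1.45, limma adjusted p = 1), a difference that was -0.07 without the first IAA array, the one at 239. In IAA7mII cells PRX52 differed by -0.39 ± 0.46 (-1.35 to 0.56, limma adjusted p = 0.898). In IAA19mII cells, where the mean signal with IAA was 1.98 times that in mock, the difference was 0.90 ± 0.46 (-0.05 to 1.86) with an unadjusted limma p of 0.0624 and an adjusted p of 0.597. The intervals leave room for a change of PRX52 with IAA of more than 2-fold in empty vector and IAA19mII cells upward and in IAA7mII cells downward.

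AT5G64110 showed smaller differences with IAA and narrower intervals. In empty vector cells its signal differed by -0.32 ± 0.35 (95% interval -1.03 to 0.40, limma adjusted p = 1), in IAA7mII cells by 0.09 ± 0.35 (-0.62 to 0.81, limma adjusted p = 0.979) and in IAA19mII cells by -0.31 ± 0.35 (-1.03 to 0.40, limma adjusted p = 0.844). The value in IAA7mII cells took the other sign without the third mock array (-0.18) or the first IAA array (-0.21). The difference between the responses of the 2 over-expressors, which the choice of genes touches, was 1.3 ± 0.66 for PRX52 and -0.40 ± 0.49 for AT5G64110 (IAA19mII minus IAA7mII).

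The mean of both over-expressors was also set against the empty vector. Since it averages the IAA19mII arrays that served to choose the genes, its values for the pair are given as a description, with no p. For AT5G64110 the difference was 1.91 ± 0.30 in mock and 2.12 ± 0.30 with IAA, and for PRX52 it was 1.44 ± 0.40 and 1.20 ± 0.40. In both genes the IAA7mII arrays overlapped the empty vector arrays and the IAA19mII arrays did not, so that these differences come from the IAA19mII arrays. Over all probesets, 6.59% were called higher and 8.89% lower in mock, and 9.15% and 16.1% with IAA.

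The array-wide scale differed between vectors. The 75th percentile of signal lay between 264 and 275 with the empty vector and between 220 and 238 with the over-expressors, and the median difference of all probesets was -0.11 in mock and -0.17 with IAA. Under median centring these medians were 0.12 and 0.13, and the split of calls turned from 1114 higher and 1501 lower to 1843 and 708 in mock, and from 1545 and 2721 to 2630 and 1191 with IAA. Under quantile normalization the splits were 1218 and 1174, and 1766 and 1941. The change in IAA response, over-expressor mean minus empty vector, was not called for either gene: -0.24 ± 0.57 for PRX52 (95% interval -1.41 to 0.93) and 0.21 ± 0.43 for AT5G64110 (-0.67 to 1.09), both with a limma adjusted p of 1. In that comparison 0.142% of all probesets were called.

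**Figure D2:**
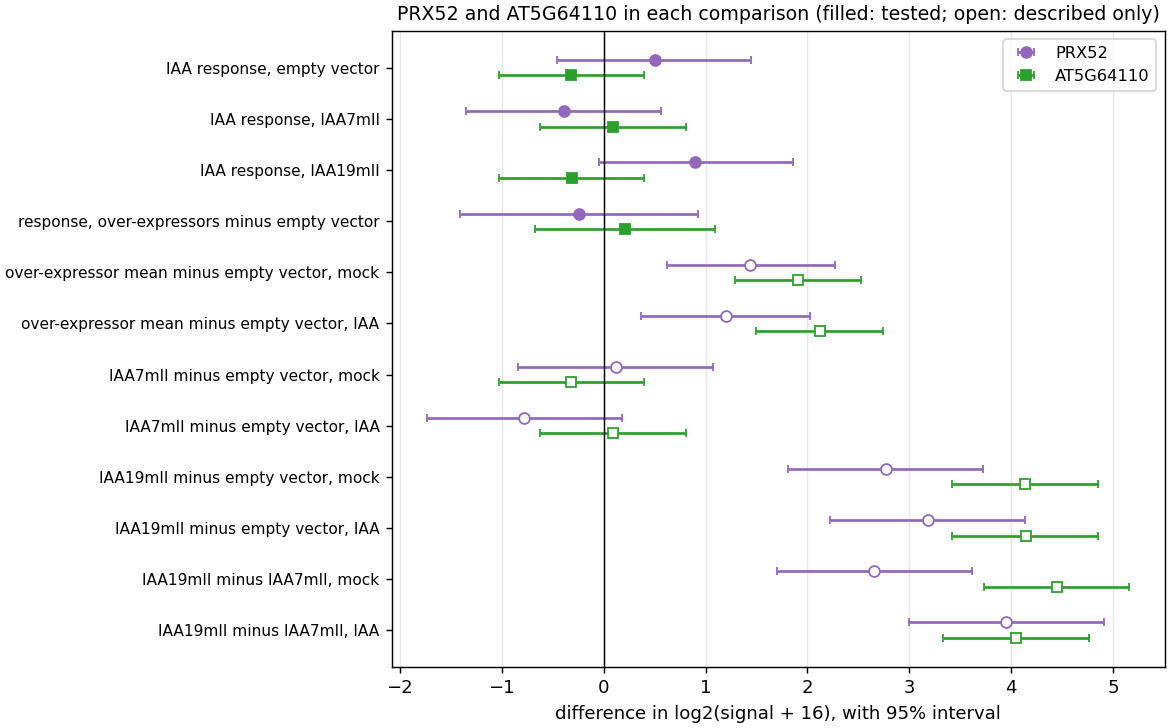
Differences of log2(signal + 16) for PRX52 and AT5G64110 in each comparison, with 95% intervals from the limma fit of 18 arrays; filled points were tested and open points are described only, because the genes were picked for the difference between IAA19mII and IAA7mII cells. The intervals of all IAA responses include 0, and the open points that include IAA19mII cells lie to the right of those for IAA7mII cells against empty vector.

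The class III peroxidase family was then read across the same arrays. Of 73 listed loci, 55 had a named probeset and 40 passed the low-signal filter, the other 15 never exceeding a signal of 73.1. Besides PRX52 and AT5G64110, AT5G64100 and AT5G64120 were the listed genes whose 6 IAA19mII arrays all lay above the 12 others. The same held for 2.02% of all probesets tested. Among the 38 tested family members other than the pair, 2 were called higher and 0 lower in IAA19mII than in IAA7mII cells in mock. Over all probesets, 3.14% and 1.23% were called higher and lower. With IAA 4 were called higher and 0 lower, against 4.17% and 2.47% of all probesets. An unadjusted limma p under 0.05 was reached by 6 of the 38 in mock and 7 with IAA. Of all 16892 probesets, 2459 in mock and 3353 with IAA reached it, a similar share. The median difference of these 38 genes was 0.30 in mock and 0.00 with IAA, beside -0.06 and -0.01 over all probesets.

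The 2 called in mock were AT5G64100 and AT5G64120, the genes on either side of AT5G64110. AT5G64120 is PRX71, a peroxidase linked to cell wall strengthening and restricted growth; no role is annotated for AT5G64100. Both were also called with IAA, together with AT5G19880 and AT5G06730. AT5G19880 had a mean signal of 64.7 (SD 36.7, n = 3) in IAA19mII and 41.4 (SD 34.1) in IAA7mII mock cells, a difference of 0.59 ± 0.42 (limma adjusted p = 0.584). With IAA the means were 114 (SD 8.54) and 4.43 (SD 3.04), a difference of 2.68 ± 0.42 (limma adjusted p = 0.00012). The IAA7mII arrays with IAA read only 1.0 to 6.8, and this difference ran from 1.38 to 4.62 over other settings. AT5G19880 passed the low-signal filter with the help of its IAA19mII arrays, at 36.8 to 122. Its test is thus not free of that selection. AT5G06730 was called with IAA at 1.46 ± 0.42 (limma adjusted p = 0.0331), with means of 52.4 and 5.37, and lost the call in 9 alternative settings. Its 2 means in mock were both 29.4. Outside IAA19mII cells AT5G06730 read at most 37.5, and in IAA19mII cells with IAA up to 95.2. It may thus also have passed the filter with the help of IAA19mII arrays, and its test is not taken as free of that selection. Most of the family did not pass the test between the over-expressors, and most probesets of any kind did not. No listed peroxidase was called lower, where 1.23% of all probesets were in mock and 2.47% with IAA, so little can be read from this.

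**Figure D3:**
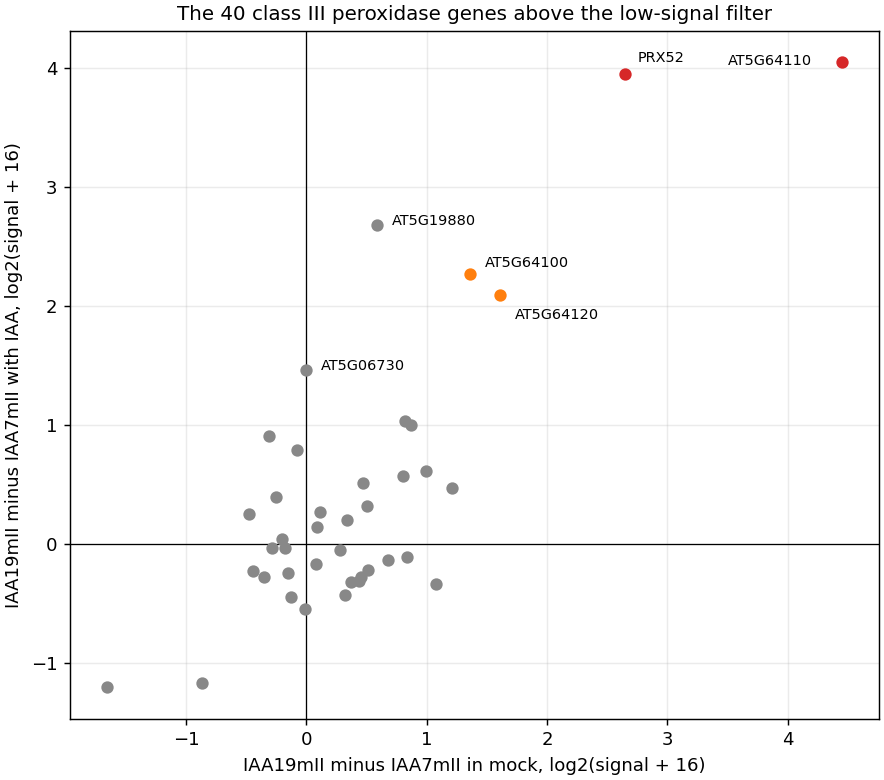
Difference of log2(signal + 16) between IAA19mII and IAA7mII cells in mock (x axis) and with IAA (y axis) for the 40 class III peroxidase genes above the low-signal filter, 1 point a gene. PRX52 and AT5G64110 (red) lie farthest to the upper right, AT5G64100 and AT5G64120 (orange) follow in both treatments, and AT5G19880 and AT5G06730 stand out with IAA alone.

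Other peroxidase genes differed between the over-expressor mean and the empty vector. Of the 38 others, 4 were called higher and 2 lower in mock, and 6 higher and 2 lower with IAA, where 6.59% and 8.89% of all probesets were called higher and lower in mock and 9.15% and 16.1% with IAA, a split that turns under median centring as given above. AT1G14550, AT2G18980 and AT5G64100 were higher in both treatments, AT5G19880 in mock, and AT5G64120, AT5G39580 and AT3G01190 with IAA. The empty vector arrays of AT5G19880 read 0.7 to 23.1, and the gene passed the low-signal filter with the help of its over-expressor arrays. Its call here is thus not free of that selection. AT2G37130 was lower in both, AT5G24070 in mock and AT2G22420 with IAA. For AT5G64100 and AT5G64120 the larger part came from the IAA19mII arrays. In IAA7mII cells AT5G64100 differed from empty vector cells by 0.20 ± 0.21 in mock and 0.58 ± 0.21 with IAA. AT5G64120 differed there by 0.16 ± 0.25 with IAA, and none of these was called. AT1G14550 was higher by 1.62 ± 0.39 in mock (limma adjusted p = 0.00486) and 2.80 ± 0.39 with IAA (limma adjusted p = 5.55e-06). Its mean mock signal was 62.9 with the empty vector, 190 with IAA7mII and 220 with IAA19mII, and its IAA7mII arrays overlapped the empty vector arrays in mock and not with IAA. AT2G18980 was higher by 1.32 ± 0.29 and 1.33 ± 0.29 (limma adjusted p = 0.00245 and 0.00143). AT2G37130, whose empty vector mean was 7984 in mock, was lower in mock, at 2842 with IAA7mII and 2474 with IAA19mII (difference -1.67 ± 0.23, limma adjusted p = 8.36e-06). For AT1G14550, AT2G18980 and AT2G37130 the 2 over-expressors were not called different from each other. AT1G14550 lost its mock call without the first or the third empty vector mock array (limma adjusted p = 0.0608 and 0.0607). AT5G24070 lost its call under median centring (limma adjusted p = 0.0634), with a pseudocount of 1 (0.0626) and without the second empty vector mock array (0.139). AT2G22420 lost its call under median centring (limma adjusted p = 0.0945), quantile normalization (0.0799), with only the groups compared (0.0577) and without the first or the second empty vector IAA array (0.0823 and 0.0842). AT5G39580 lost its call in the unmoderated test (adjusted p = 0.0767) and without the first or the second empty vector IAA array (limma adjusted p = 0.116 and 0.0578), and AT3G01190 without the first (0.0532).

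No listed peroxidase was called for a response to IAA in IAA7mII or IAA19mII cells by limma, where 0.0888% of all probesets were called in each. At an unadjusted limma p under 0.05 there were 3 and 0 of the 40, beside 1306 and 1490 of all 16892 probesets. In empty vector cells 1 of 40 was called, AT5G64100, which fell, as did 0.403% of all probesets. There 4 of the 40 had an unadjusted limma p under 0.05, beside 871 of the 16892. With so few calls over all probesets, little can be read from their scarcity in the family.

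The locus of AT5G64110 was followed gene by gene. AT5G64100, AT5G64110 and AT5G64120 are consecutive in the gene order of the reference table (assembly TAIR10.1). AT5G64100 read 1917, 1933 and 1812 in empty vector mock cells and 995, 641 and 1187 with IAA. In IAA7mII cells it read 1894, 3029 and 1786 in mock and 1207, 1659 and 1279 with IAA. In IAA19mII cells it read 6061, 6442 and 4545 in mock and 6561, 7203 and 6236 with IAA. All 6 IAA19mII arrays were above the highest other array, which read 3029, as for 2.02% of all probesets tested. In empty vector and IAA7mII cells the IAA arrays were below the mock arrays without overlap, a pattern that 6.48% and 5.96% of all probesets shared. The fall with IAA in empty vector cells was -1.04 ± 0.21 (limma adjusted p = 0.00881); it was not called without the second empty vector mock array (limma adjusted p = 0.058), without the second empty vector IAA array (-0.79, limma adjusted p = 0.156), without the intensity trend (0.177) or in the unmoderated test (0.135). The corresponding values were -0.66 in IAA7mII cells (limma adjusted p = 0.41) and 0.24 in IAA19mII cells (limma adjusted p = 0.797), and the response of the over-expressor mean minus that of the empty vector was 0.83 ± 0.26 (limma adjusted p = 0.513).

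AT5G64120 (PRX71) read 999, 1065 and 953 in empty vector mock cells and 956, 411 and 546 with IAA. In IAA7mII cells it read 590.1, 976 and 609.6 in mock and 843, 713 and 505 with IAA. In IAA19mII cells it read 1936, 2493 and 2162 in mock and 2645, 3530 and 2667 with IAA. Again the IAA19mII arrays stood above all others, as for 2.02% of all probesets tested, while the empty vector and IAA7mII arrays overlapped. Between IAA19mII and IAA7mII cells AT5G64120 differed by 1.61 ± 0.25 in mock (limma adjusted p = 0.000124) and 2.09 ± 0.25 with IAA (limma adjusted p = 3.25e-06). AT5G64100 differed by 1.36 ± 0.21 (limma adjusted p = 0.000103) and 2.27 ± 0.21 (limma adjusted p = 4.86e-08). Both calls held in all 29 alternative settings for each gene. Whether transcripts of the neighbouring genes bind one another's probes was not tested, since probe sequences were not used here.

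The genes beyond this run were read in the same comparison, over 5 genes on each side, a window chosen after values had been seen. Around AT5G64110, 6 of the 10 neighbours had a tested probeset, and AT5G64100 and AT5G64120 were the 2 called in mock and with IAA. The next gene on one side, AT5G64090, differed by -0.17 ± 0.31 in mock and -0.98 ± 0.31 with IAA (limma adjusted p = 0.0544), opposite in sign to the peroxidase genes beside it. The next gene on the other side, AT5G64130, differed by 0.08 ± 0.21 and 0.50 ± 0.21 (limma adjusted p = 0.922 and 0.157). Around PRX52, 3 of 10 neighbours had a tested probeset and 0 were called by limma; AT5G05310 differed by -0.77 in mock and 0.01 with IAA, AT5G05320 by 0.43 and 0.23, and AT5G05350 by 0.67 and 0.78. In the background 4.37% of all probesets were called in mock and 6.64% with IAA.

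**Figure D4:**
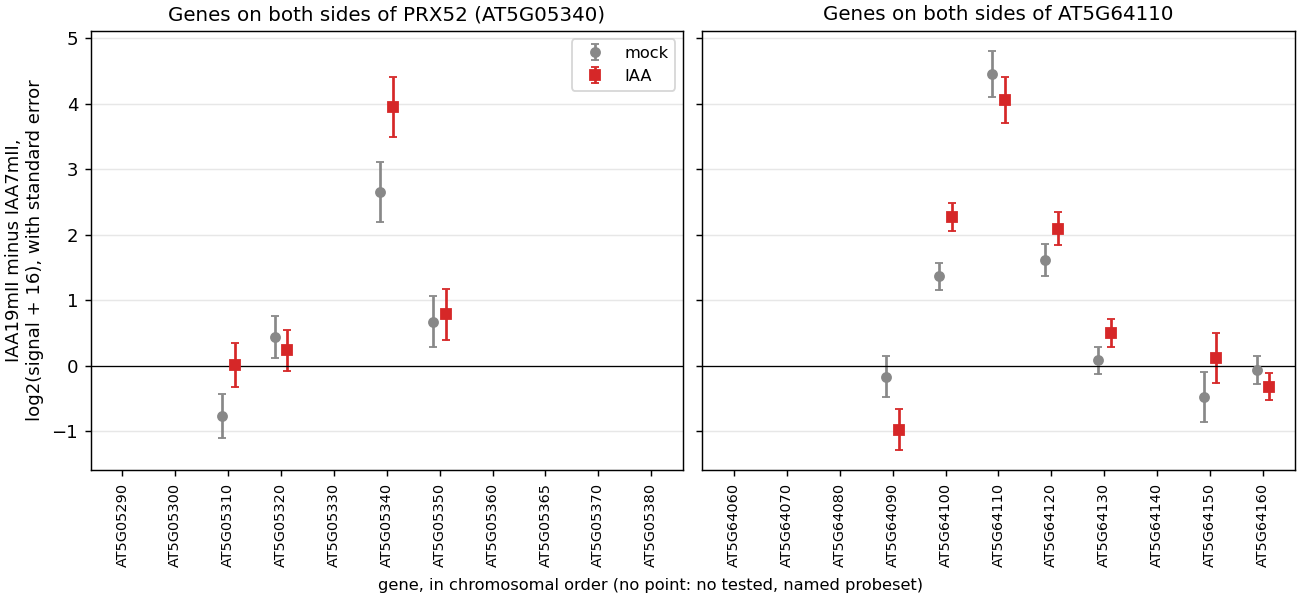
Difference of log2(signal + 16) between IAA19mII and IAA7mII cells in mock and with IAA, with standard errors, for genes up to 5 places on either side of PRX52 (AT5G05340) and AT5G64110 in gene order; places without a named probeset are empty. The peroxidase genes AT5G64100 and AT5G64120 are higher beside AT5G64110, and no tested neighbour of PRX52 was called.

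Few genes that supply or assist peroxidases could be read on these arrays. Of 18 listed genes of monolignol synthesis, which makes the phenolic substrates that peroxidases couple into lignin, 2 had a named probeset and both were tested. HCT, a hydroxycinnamoyl transferase of that pathway, had mean signals of 152 (range 139 to 166) in IAA7mII and 350.0 (range 307 to 425) in IAA19mII mock cells, and 177 (125 to 213) and 602 (465 to 824) with IAA. HCT was higher in IAA19mII than in IAA7mII cells by 1.11 ± 0.27 in mock (limma adjusted p = 0.0107) and 1.66 ± 0.27 with IAA (limma adjusted p = 0.000138), without overlap in either treatment, as were 9.57% of all probesets in mock and 9.43% with IAA. The mock call was lost without the third IAA19mII mock array (0.97, limma adjusted p = 0.0811). In empty vector cells HCT read 267 in mock and 362 with IAA, between the 2 over-expressors, which differs from the pattern of PRX52 and AT5G64110.

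CCR2, a cinnamoyl-CoA reductase, was higher in IAA19mII than in IAA7mII mock cells by 2.18 ± 0.52 (limma adjusted p = 0.011; means 110 and 10.1), a call lost in 4 alternative settings. With IAA the difference was 1.5 ± 0.52 (limma adjusted p = 0.0873; means 104 and 34.2). Neither gene was called in the over-expressor mean against the empty vector. Of 17 listed laccases, enzymes that also oxidise monolignols, 1 had a named probeset, LAC16, and it did not pass the filter. Of 10 listed NADPH oxidases, which make the superoxide that yields hydrogen peroxide, 3 had a named probeset and 2 were tested. AT1G19230 was lower in the over-expressor mean than in the empty vector in mock (difference -1.1 ± 0.34, limma adjusted p = 0.0291) and with IAA (-2.41 ± 0.34, limma adjusted p = 6.85e-06). The mock call was lost under median centring (limma adjusted p = 0.0973), under quantile normalization (0.0931), in the unmoderated test and without any 1 of 5 arrays, the 3 empty vector mock arrays among them. AT4G25090 was not called in any comparison, and neither gene was called between IAA19mII and IAA7mII cells.

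The 1 epidermal marker that could be read, EXPA7, had means of 53.1 and 105 in empty vector cells, 30.8 and 37.2 in IAA7mII cells and 105 and 100 in IAA19mII cells, in mock and with IAA. It differed between IAA19mII and IAA7mII cells by 1.15 ± 0.52 in mock (limma adjusted p = 0.294) and 1.16 ± 0.52 with IAA (limma adjusted p = 0.208). Its IAA19mII arrays (40.8 to 203 in mock, 64 to 134 with IAA) did not overlap its IAA7mII arrays (25.9 to 39.2 and 19.2 to 63.6). The same held for 9.57% of all probesets in mock and 9.43% with IAA, where the gap of EXPA7 was narrow. The IAA19mII arrays of EXPA7 overlapped its empty vector arrays. Its mean was thus larger in IAA19mII than in IAA7mII cells, as for PRX52 and AT5G64110, and its part in their difference was not tested.

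The genes whose signal followed the pair most closely were sought by Pearson correlation of log2(signal + 16) over the 18 arrays among 9508 tested single-gene probesets. PRX52 was followed by AT3G18560 (r = 0.942), AT4G22610 (0.925), AT5G61890 (0.916), AT4G19720 (0.908) and AT1G59740 (0.905), the last annotated as NPF4.3, of the nitrate and peptide transporter family. AT5G64110 was followed by AT1G70810 (0.976), AT3G45710 (0.962), AT4G37850 (0.959), AT4G36140 (0.948) and AT5G23840 (0.936). For the pair the IAA19mII arrays lie apart from the rest, so the values were also taken within each set. Within the 12 arrays without IAA19mII the correlations with PRX52 were 0.289 to 0.57, and those with AT5G64110 were -0.086 to 0.4.

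Within the 6 IAA19mII arrays, PRX52 kept a high correlation with AT3G18560 (0.96) and AT4G22610 (0.917), a lower one with AT5G61890 (0.67), and values near 0 with AT4G19720 (-0.047) and AT1G59740 (0.006). AT5G64110 had 0.88 with AT4G37850, 0.711 with AT3G45710, 0.687 with AT4G36140, -0.198 with AT1G70810 and -0.572 with AT5G23840. AT1G70810 had group means of 1094 and 732 in empty vector, 868 and 766 in IAA7mII, and 8409 and 7355 in IAA19mII cells, in mock and with IAA. AT3G18560 had means of 38.5, 90.2, 61.1, 45.2, 316 and 468 in the same order, the IAA19mII groups again above the others. PRX52 and AT5G64110 themselves correlated at 0.898 over the 18 arrays (Spearman's rho 0.672), at 0.064 in the 12 and at 0.045 in the 6. They thus shared the step between IAA19mII and the other cells and little of their variation on either side of it. These correlations describe arrays that share groups, scaling and amplification.

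**Figure D5:**
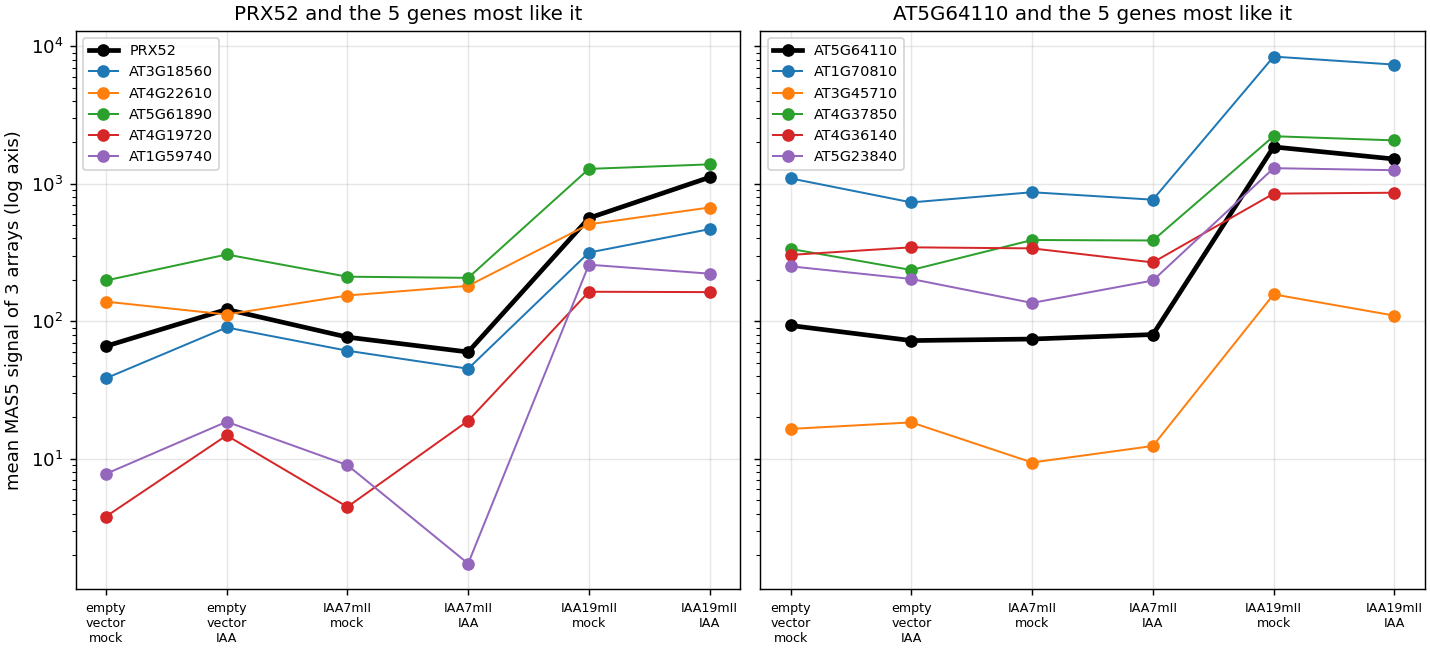
Group means of signal (log axis) for PRX52 and AT5G64110 and for the 5 genes most correlated with each over 18 arrays, across the 6 groups. Every line steps up at the IAA19mII groups, which follows from how the genes were picked. Levels of different genes are not comparable.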

How the data were processed

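The deposited values are MAS5 signals, an intensity on a linear scale for each probeset of 18 ATH1 arrays, per the submitters' processing notes; no MAS5 version is stated in the sources used here. Amplification used the NuGEN WT-Ovation Pico kit, per the labels' protocols. Trimmed means of the arrays lay between 246 and 248, and this scaling was kept. A probeset was tested if at least 3 arrays put it over their own percentile 40, which left 16892 of 22746. Log2(signal + 16) was fitted with limma 3.58.1 (R 4.3.3), each group having its own mean and the prior following the intensity. Benjamini-Hochberg adjustment ran over all 16892 within each comparison, and calls were made at an adjusted p under 0.05. Alternatives were pseudocounts of 1 and 64, no filter or one at percentile 60, quantile normalization, array weights, centring on the median, a replicate block, a prior without trend, a test without moderation, a fit of the compared groups alone, and leaving out each array. The number of arrays limits the precision, and no array pair was identical. The fit was tested on simulated data.

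Gene names came from the platform's probe table, matched to a reference table of assembly TAIR10.1: 13513 probesets carry 1 gene, 13436 of them matched, 503 carry several and 8730 none. Each listed gene had at most 1 named probeset. The family list of 73 loci was drawn up from general knowledge, and the reference table names 14 of them as peroxidases. The members, gene lists and comparisons were chosen with earlier results of these data known. Genes were named by this rule: the pair, the genes beside AT5G64110, up to 4 called members per list, direction and comparison, up to 2 uncalled ones as values, and the 5 most correlated genes of each; naming by protein identity could not be applied, as no protein sequences were used here. Replicate numbers were not taken as pairs. Of 45 pairs of arrays with the same number in different groups, 1 correlated above 0.1 in its deviations from the group means. Even so, 16 of 18 arrays correlated best with an array of their own number, and fits with the number as a block are described below.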

Additional observations from a re-analysis of the deposited data

Results flagged for a closer look

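For the peroxidase gene AT5G19880 the IAA arrays lay above the mock arrays in empty vector cells and below them in IAA7mII cells, without overlap in either. Neither response passed limma's test. In IAA7mII cells 5.96% of all probesets lay lower with IAA without overlap, and the share higher in empty vector cells is not given here. Its response was 0.87 ± 0.42 in empty vector cells (mean signals 1.77 in mock and 17.3 with IAA, limma adjusted p = 0.966) and -1.31 ± 0.42 in IAA7mII cells (41.4 and 4.43, limma adjusted p = 0.412). The difference of the 2 responses, IAA7mII minus empty vector, was -2.18 ± 0.60 and did not pass either (limma adjusted p = 0.434). Signals this low depend on the pseudocount.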

How the results depend on the processing

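Up to 11 other settings and 18 fits without 1 array each were run for every result. The differences of the pair in the over-expressor mean rest on the IAA19mII arrays used to choose the genes, so their ranges are descriptions. For AT5G64110 they ran from 1.71 to 2.14 in mock and 1.80 to 2.42 with IAA. For PRX52 in mock the unmoderated test gave 1.44, and fits without 1 array gave 1.34 to 1.61. With IAA PRX52 gave 1.22 with a pseudocount of 1, 1.20 with no intensity trend, in the unmoderated test and with only the groups compared, and 0.78 (without the second empty vector IAA array) to 1.77 without 1 array. Uncalled differences that changed sign were the PRX52 response in empty vector cells (-0.07 to 0.92 without 1 array), the PRX52 change in response (0.10 with array weights, -0.67 to 0.33 without 1 array), the AT5G64110 response in IAA7mII cells (-0.21 to 0.41) and its change in response (-0.08 to 0.41, and -0.00023 without the third empty vector mock array). With a pseudocount of 64, which shrinks differences of low signals, AT5G64110 differed between IAA19mII and IAA7mII cells by 3.82 in mock and 3.46 with IAA. Listed peroxidases called for IAA in empty vector cells numbered 1, against 0 with no intensity trend or an unmoderated test, 2 with array weights, and 0 to 2 without 1 array.

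Among all probesets, calls for IAA in empty vector cells numbered 124, against 66 with no intensity trend, 69 unmoderated, 328 with array weights and 78 or 81 without the second mock or IAA array. In IAA7mII cells 15 became 8 with only the groups compared and 35 without the first IAA array. In IAA19mII cells 15 became 8 with no trend, 4 unmoderated, and 8, 7 and 8 without the first or second mock or the second IAA array. The over-expressor mean in mock went from 2615 to 4550 with array weights, and to 1612 and 1573 without the first or the third empty vector mock array. The change in response went from 24 to 11 and 39 with pseudocounts of 1 and 64, 14 with no trend, 13 unmoderated, 51 with array weights, and 15 and 12 without the third mock or second IAA empty vector array. IAA19mII against IAA7mII with IAA went from 1122 to 539 with array weights and 480 with only its own groups.

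With the replicate number as a block, no response of PRX52 or AT5G64110 to IAA was called (PRX52 in IAA19mII cells 0.90, limma adjusted p = 0.587), and the IAA19mII response rose from 15 to 24 called probesets. The numbers are not known to pair the samples, although 16 of 18 arrays correlated best with an array of their own number. A scan batch could not be fitted, since no scan information was used here. Taking every probeset of a gene was not a separate setting, as no listed peroxidase had more than 1 named probeset.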
